A study of Mus musculus with 4 samples.

Results

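The 84 nuclear genes examined here encode the subunits of the oxidative phosphorylation machinery, and they were followed across the cells of mouse liver metastases. They were chosen by symbol from the 32285 genes counted: all symbols beginning with Ndufa, Ndufb, Ndufc, Ndufs, Ndufv, Uqcr, Cox4i, Cox5, Cox6, Cox7, Cox8 or Atp5, together with Sdha, Sdhb, Sdhc and Sdhd. Assembly factors of the Ndufaf series, pseudogenes and Cox6a2 were left out. By complex, 36 genes belong to complex I, 4 to complex II, 8 to complex III, 19 to complex IV and 17 to complex V, with Ndufa4 and Ndufa4l2 counted in complex IV. The inhibitor of complex V is listed under its older symbol Atpif1 and is not among the 84.

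Oxidative phosphorylation is the respiratory chain of the inner mitochondrial membrane together with ATP synthase. Complex I (NADH dehydrogenase) and complex II (succinate dehydrogenase, also an enzyme of the citrate cycle) pass electrons to complex III (the cytochrome bc1 complex), which hands them through cytochrome c to complex IV (cytochrome c oxidase), and complex V (ATP synthase) makes ATP from the resulting proton gradient. Most subunits come from nuclear genes and a small core from mitochondrial DNA. In myeloid cells the balance between this pathway and glycolysis differs between activation states, and neutrophils are known for a small mitochondrial mass and a reliance on glycolysis.

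The data are single-cell RNA counts from C57BL/6J mice with liver metastases of MC38, a mouse colon carcinoma line. There were 4 libraries: low-fat diet with wild-type (WT) MC38, low-fat diet with its Yap knock-down derivative (shYap), high-fat diet with WT MC38, and high-fat diet with shYap MC38. Values below are given in that order. The knock-down was in the injected tumour line and not in the host, each combination is 1 library, and the labels do not give the number of mice behind a library. Tumours were cut away from the surrounding liver and cells were selected with anti-CD45 magnetic beads, so immune cells make up most of the material. For the low-fat shYap library the title names the low-fat diet and the treatment field a high-fat diet, and the title was followed here.

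The 4 libraries held 11306, 9162, 11026 and 7388 cells that passed the filters. A cell carried a median of 6570, 8781.5, 8466.5 and 9892 unique molecular identifiers (UMIs). Pairs of libraries shared 33 to 63 cell barcodes. The high-fat shYap library stood apart: Xist was at 387 CPM, that is UMIs per fixed total of summed UMIs, in its mononuclear phagocytes and at most 0.052 CPM in those of the other 3. Y-linked genes were at 107 CPM in the same cells and at 130 to 136 CPM in those of the other 3. Only the high-fat shYap library thus held both in quantity. Of the 732 cells of an Xist-led phagocyte sub-cluster, 728 came from it. A different phagocyte sub-cluster, which was left unnamed, came almost wholly from the low-fat shYap library (2270 of 2305 cells). The clusters named tumour-like and fibroblast-like or stellate-like had little Ptprc, the gene for CD45 (5.59 to 10.4 and 14.1 to 21.4 CPM, against 295 to 345 CPM in phagocytes), although the cells had been selected with anti-CD45 beads. Clusters were built without the 84 genes.

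Transcripts of 82 of the 84 genes were counted in the kept cells. Cox8b and Cox8c had 0 UMIs, which allows a level of up to 0.0074 CPM over all kept cells, and Cox7b2 had 1 UMI. The most abundant gene of each complex was Ndufa13 in complex I (159021 UMIs), Sdhb, the iron-sulphur subunit of complex II (49924 UMIs), Uqcrh, the hinge protein of complex III (255546 UMIs), Cox4i1 in complex IV (485076 UMIs) and Atp5e in complex V (289103 UMIs). A UMI marks 1 captured 3′ end, so these counts have no length term. At the other end were the tissue-restricted or hypoxia-linked forms: Ndufa4l2 had 899 UMIs, Cox4i2 1720, Cox6b2 1846 and Cox7a1 2486.

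Together the 84 genes took between 1.05% and 2.96% of all UMIs in the libraries of the 9 named cell types that had at least 50 cells in every library. Tumour-like cells stood highest with 2.64 ± 0.24% (SD, n = 4 libraries, as for the following means). They were followed by fibroblast-like or stellate-like cells with 2.47 ± 0.16%, T-lineage-like cells with 2.35 ± 0.14%, type 1 conventional dendritic-like cells with 2.23 ± 0.07% and NK-like cells with 2.23 ± 0.27%. Mononuclear phagocyte-like cells had 2.15 ± 0.17%, type 2 conventional dendritic-like cells 2.11 ± 0.15% and B-like cells 1.83 ± 0.20%. The library values of each pair of neighbours in this order overlapped. Neutrophil-like cells were last with 1.42 ± 0.33%, and their libraries were also the most unequal of the 9 types.

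**Figure D1:**
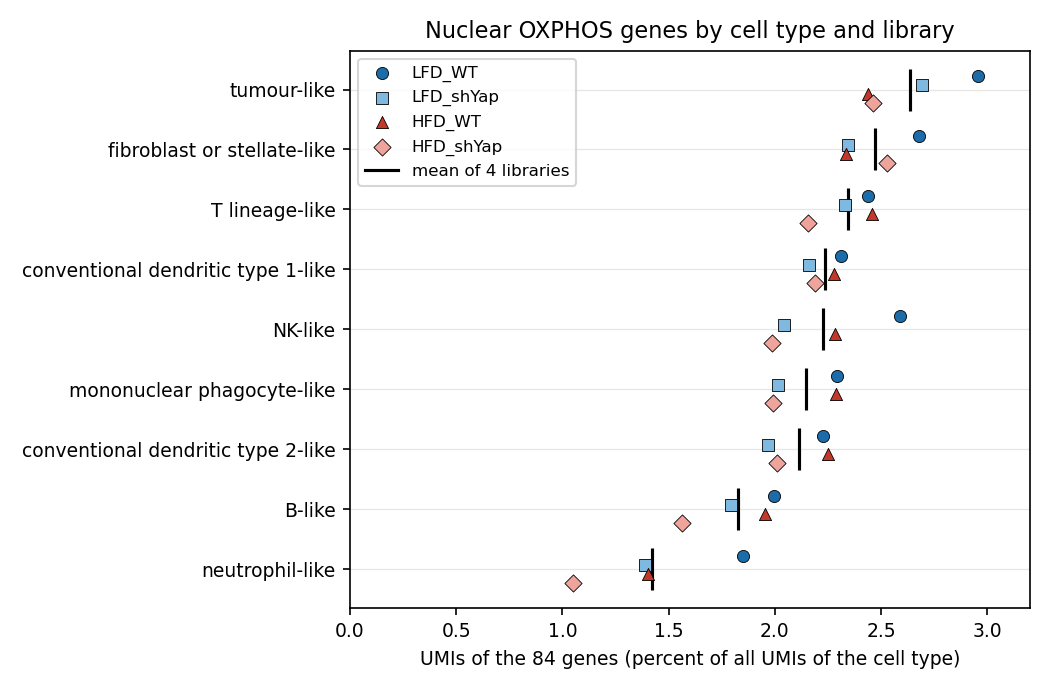
Share of UMIs from the 84 nuclear oxidative phosphorylation genes (x axis, percent of all UMIs of the cell type) in 9 named cell types (y axis), with 1 point per library and a vertical bar for the mean of 4 libraries. LFD is the low-fat and HFD the high-fat diet. Neutrophil-like cells have the lowest mean, 1.42%, with libraries from 1.05% to 1.85%, and tumour-like cells have the highest mean.

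In neutrophil-like cells the share was 1.85%, 1.39%, 1.40% and 1.05%, with exact (Clopper-Pearson) 95% intervals of 1.82 to 1.88%, 1.37 to 1.41%, 1.39 to 1.42% and 1.03 to 1.07% that cover counting error only. In mononuclear phagocyte-like cells it was 2.29%, 2.02%, 2.29% and 1.99%. All 4 neutrophil values lay below all 4 phagocyte values. A neutrophil carried 26.4 to 40.9 UMIs of these genes and a phagocyte 224 to 291, at median depths of 1657 to 2180.5 and 8033 to 11995 UMIs per cell. Transcripts of C1qa, C1qb and C1qc, complement genes of phagocytes, were present in neutrophils at 17.7% to 35.1% of their phagocyte level. S100a8 and S100a9, abundant in neutrophils, reached at most 0.256% of their neutrophil level in phagocytes. The part of phagocyte transcripts in the neutrophil values was not tested.

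The 3 types with the most cells were compared gene by gene on summed counts (edgeR's quasi-likelihood test with the library as a block, 12311 genes, adjusted p under 0.05). The p-values measure the spread between 4 libraries only. Between neutrophil-like and phagocyte-like cells, 48 of the 80 tested members were lower and 2 higher in neutrophils, with a median log2 difference of -0.44. Over all genes, 58.7% were called in either direction, 33% lower and 25.7% higher, with a median of -0.25. With no filter on low counts the order of the 2 medians turned, to -0.48 for the members and -0.57 for all genes.

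Complex III had the lowest median, -0.62, with 5 of 8 subunits lower. Uqcrc1, a core protein of complex III, was at 101, 86.3, 94.8 and 94.6 CPM in phagocytes and at 40.6, 41.7, 40.8 and 27.4 CPM in neutrophils. The groups did not overlap, and the edgeR log2 difference was -1.03 ± 0.13 (SE, adjusted p = 1.4e-05). Its partner Uqcrc2 was lower by a similar amount (-0.98 ± 0.14, edgeR adjusted p = 2.4e-05). Uqcrh, the most abundant complex III transcript, did not pass the test (-0.26, edgeR adjusted p = 0.073).

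In complex I, 25 of 36 genes were lower and 1 higher (median -0.49). Ndufc2, an accessory membrane subunit, was at 245, 219, 266 and 218 CPM in phagocytes and 128, 90.7, 111 and 69.2 CPM in neutrophils, without overlap (-0.99 ± 0.12, edgeR adjusted p = 7.6e-06). Ndufa11, another accessory subunit of the membrane arm, was at 197, 140, 173 and 146 CPM against 109, 88.9, 82.8 and 48.3 CPM, also without overlap (-0.74 ± 0.15, edgeR adjusted p = 0.00061). Of the 7 nuclear core subunits, which carry the flavin and iron-sulphur centres, 6 were lower. Ndufa3 was the only complex I gene called higher in neutrophils (0.33 ± 0.13, edgeR adjusted p = 0.036), although its 4 neutrophil values (226, 169, 142 and 150 CPM) overlapped the phagocyte values (170, 148, 176 and 164 CPM).

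Complex II, with 4 genes, divided by subunit. Sdhc, a membrane anchor, was at 91.1, 83.7, 85.1 and 89.7 CPM in phagocytes and 43.0, 38.0, 41.2 and 37.0 CPM in neutrophils (-0.84 ± 0.11, edgeR adjusted p = 1.6e-05). Sdhb was lower too (-0.73 ± 0.12, edgeR adjusted p = 9.9e-05). The flavoprotein Sdha (-0.21, edgeR adjusted p = 0.1) and the other anchor Sdhd (-0.05, edgeR adjusted p = 0.71) did not pass.

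In complex V, 9 of 17 genes were lower and 1 higher (median -0.43). Atp5g1, Atp5g2 and Atp5g3 encode one and the same mature c-ring subunit with different import signals, and all 3 were lower. Atp5g2 was at 550, 548, 618 and 532 CPM in phagocytes and 235, 231, 293 and 135 CPM in neutrophils, again without overlap (-1.07 ± 0.15, edgeR adjusted p = 2.7e-05). Atp5md, a small membrane subunit, was called higher in neutrophils (0.35 ± 0.12, edgeR adjusted p = 0.020), and its neutrophil values of 355, 198, 256 and 216 CPM overlapped the phagocyte values of 252, 196, 286 and 227 CPM.

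Complex IV had the median nearest 0, -0.35, with 7 of 15 tested genes lower and none higher. Cox4i1, its most abundant gene, differed by -0.37 ± 0.12 (edgeR adjusted p = 0.015). Cox4i2, the alternative form of that subunit, had the lowest value of all members (-1.18 ± 0.44, edgeR adjusted p = 0.032), but rests on 3, 0, 8 and 2 UMIs in neutrophils. Ndufa4, an accessory subunit of complex IV, was at 411, 334, 339 and 274 CPM in phagocytes and 268, 225, 177 and 110 CPM in neutrophils, without overlap (-0.56 ± 0.14, edgeR adjusted p = 0.0029). Without the high-fat WT or the high-fat shYap library its difference was -0.41 or -0.33 and no longer passed.

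Genes outside the 84 that belong to the same or neighbouring pathways were counted from lists. The 13 subunits encoded in mitochondrial DNA were lower in neutrophils for 12 of 13 (median -1.06), against 48 of 80 nuclear members. Assembly factors were lower for 24 of 42 and higher for 2 (median -0.61). Citrate cycle enzymes were lower for 11 of 16 and higher for 1 (-0.67), and electron carriers lower for 4 of 7 (-0.49), among them Cyc1, the cytochrome c1 of complex III (-0.92, edgeR adjusted p = 6.1e-06). Regulators of mitochondrial biogenesis were lower for 4 of 12 and higher for 1 (-0.45). Glycolysis genes were higher for 15 of 16 and lower for none (0.76). Leaving out 1 library at a time gave 36 to 54 members called in either direction.

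**Figure D2:**
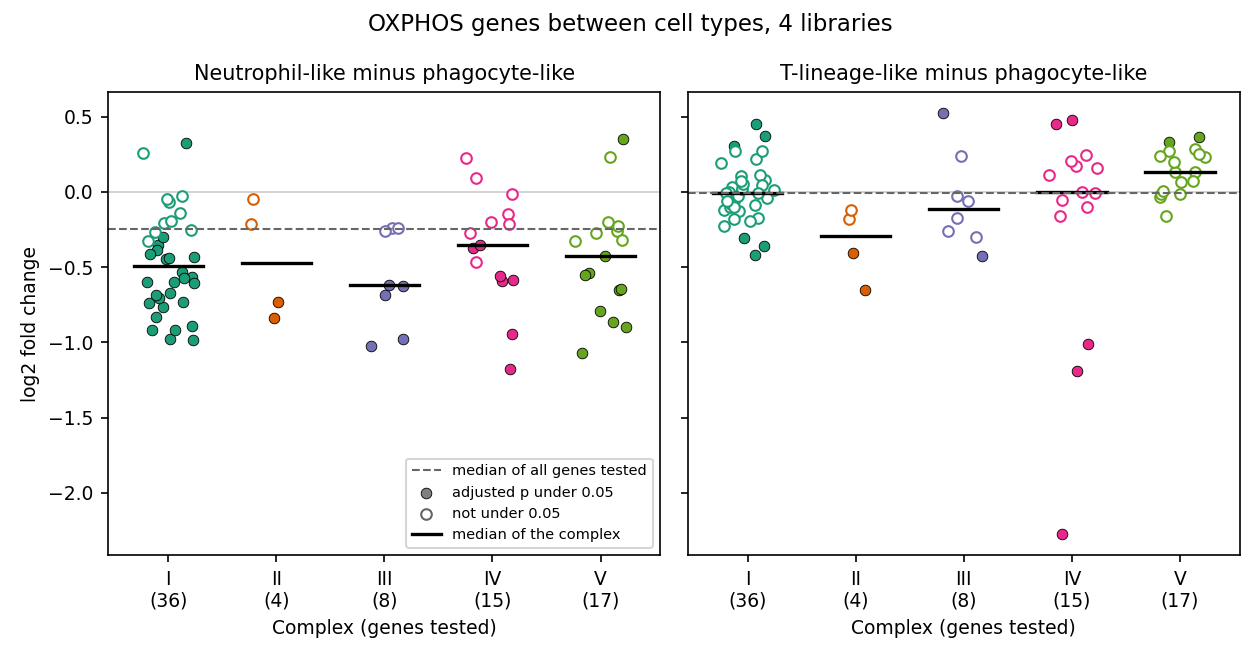
Log2 difference in edgeR (y axis) of each tested member, by complex (x axis, with the number of genes tested), for neutrophil-like minus phagocyte-like cells (left) and T-lineage-like minus phagocyte-like cells (right). Each point is a gene, filled where the adjusted p is under 0.05, a black bar is the median of the complex and the dashed line the median of all genes. On the left most points of each complex lie below 0 (member median -0.44), and on the right they lie on both sides of 0 (member median 0.00).

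Promoter windows from RefSeq (GRCm38.p6), 250 bases before to 50 bases after the annotated start, were matched for 69 of the 84 genes (74 windows). They were searched on both strands for the core of NRF1, a known activator of respiratory genes (the 10 letters in capitals in the Uqcrc1 window below), the ETS core bound by NRF2/GABP (CCGGAAG), the YY1 motif (AAGATGGC), the cyclic AMP response element (TGACGTCA) and the hypoxia response core (ACGTG). The NRF1 core was in 5 of 74 member windows (6.76%), against 0.971% of all windows and 1.96% of the windows of genes expressed in phagocytes. The ETS core was in 17 (23.0%, against 8.86% and 17.0%) and the YY1 motif in 10 (13.5%, against 2.75% and 4.34%). The cyclic AMP element was in 4 (5.41%, against 1.79% and 2.91%). The hypoxia core was in 18 (24.3%, against 19.6% and 25%).

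A match is a string of letters and not a measured binding site. The genes with an NRF1 core were Atp5g2, Uqcrc1, Ndufa11, Atp5k and Cox6a1. The first 3 were lower in neutrophils, while Atp5k (-0.33, edgeR adjusted p = 0.083) and Cox6a1 (0.09, edgeR adjusted p = 0.57) did not pass the test. Windows are printed below for 2 genes that were lower, 1 that was not called, and Ndufa4, which is described further among phagocyte states and whose window had 0 matches. They were chosen after the values were seen. Each reads 5′ to 3′ on the gene's strand, with matched motif letters in capitals: the NRF1 core in all but Ndufa4, the hypoxia core on the reverse strand (CACGT) in Atp5g2, and the ETS core on the reverse strand (CTTCCGG) in Cox6a1. The windows are Atp5g2 at chr15:102670998-102671297 (minus strand), Uqcrc1 at chr9:108936398-108936697 (plus strand), Cox6a1 at chr5:115348909-115349208 (minus strand) and Ndufa4 at chr6:11907401-11907700 (minus strand).
Atp5g2: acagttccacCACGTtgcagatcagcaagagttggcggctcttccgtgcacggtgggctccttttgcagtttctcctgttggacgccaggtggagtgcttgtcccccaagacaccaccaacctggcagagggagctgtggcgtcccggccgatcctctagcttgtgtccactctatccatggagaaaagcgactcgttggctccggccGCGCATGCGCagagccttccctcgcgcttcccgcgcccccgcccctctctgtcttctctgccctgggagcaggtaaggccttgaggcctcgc
Uqcrc1: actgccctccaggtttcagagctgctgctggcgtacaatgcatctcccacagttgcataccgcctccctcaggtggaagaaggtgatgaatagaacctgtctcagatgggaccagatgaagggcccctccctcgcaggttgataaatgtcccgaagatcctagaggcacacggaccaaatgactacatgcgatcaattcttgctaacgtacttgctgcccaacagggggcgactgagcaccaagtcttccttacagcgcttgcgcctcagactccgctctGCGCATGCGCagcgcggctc
Cox6a1: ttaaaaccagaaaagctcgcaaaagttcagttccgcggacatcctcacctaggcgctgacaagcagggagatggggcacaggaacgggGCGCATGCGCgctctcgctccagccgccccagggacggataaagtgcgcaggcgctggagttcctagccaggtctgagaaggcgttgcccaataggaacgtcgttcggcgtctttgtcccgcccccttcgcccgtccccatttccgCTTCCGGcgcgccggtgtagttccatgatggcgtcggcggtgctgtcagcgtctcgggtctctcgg
Ndufa4: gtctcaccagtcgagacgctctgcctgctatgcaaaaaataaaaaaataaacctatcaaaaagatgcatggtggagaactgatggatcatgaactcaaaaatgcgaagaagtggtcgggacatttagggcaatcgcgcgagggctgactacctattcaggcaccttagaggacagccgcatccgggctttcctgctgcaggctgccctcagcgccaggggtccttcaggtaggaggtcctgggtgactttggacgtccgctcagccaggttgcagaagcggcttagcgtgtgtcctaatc

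Between T-lineage-like and phagocyte-like cells the members divided evenly: 8 of 80 were higher in T cells and 9 lower, with a median of 0.00. Over all genes, 31.4% were called higher and 33.6% lower (median -0.01). The split depended on scaling, since median-ratio size factors gave 22 higher and 8 lower and DESeq2 gave 27 and 7. Without the high-fat shYap library 17 were higher and 4 lower. T cells had 16.9% to 20.5% of the phagocytes' C1q level, and the part of this in the result was not tested.

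Uqcrh was at 892, 869, 964 and 879 CPM in T cells and 566, 645, 641 and 573 CPM in phagocytes, without overlap (0.52 ± 0.12, edgeR adjusted p = 0.0011). Ndufa4 was at 558, 493, 453 and 409 CPM in T cells, overlapping the phagocyte values only at the low end (0.45 ± 0.13, edgeR adjusted p = 0.007). Cox7b, a small complex IV subunit, was also higher (0.48 ± 0.15, edgeR adjusted p = 0.012). Among the lower genes, Sdhc lay below all its phagocyte values at 60.3, 61.2, 58.0 and 51.8 CPM (-0.65 ± 0.09, edgeR adjusted p = 1.7e-05), and Sdhd was lower as well. The scarce Cox4i2 was lower (-2.28 ± 0.30, edgeR adjusted p = 8.5e-06), at 0.524, 1.29, 2.06 and 0.792 CPM in T cells against 4.80, 2.75, 7.82 and 6.96 CPM in phagocytes. Against neutrophils, T cells had 51 members higher and 2 lower of 80 (median 0.48), where 33.9% of all genes were higher and 31.2% lower (median 0.10). In complex V 14 of 17 were higher and none lower. The 3 comparisons of types share libraries and groups.

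Paralogous subunits were used in different proportions. In phagocytes Atp5g2 supplied 41.4%, 49.0%, 46.1% and 46.6% of the UMIs of the 3 c-ring genes, and Cox4i1 supplied 99.3% to 99.8% of those of the Cox4i pair. Cox6b1 supplied 98.8% to 99.1% of those of the Cox6b pair. In the Cox7a set Cox7a2l supplied 39.6%, 59.5%, 46.9% and 48.6%, and Cox7a2 nearly all the rest. The level of Cox7a2l in phagocytes was highest in the low-fat shYap library, at 495 CPM against 293, 375 and 340 CPM. Of the 35992 phagocyte UMIs of Cox7a2l there, 15666 came from the sub-cluster found almost only in that library, where its share was 71.4%, against 48.1% to 56.2% in that library's 7 named states. The low-fat shYap share was also the highest of the 4 libraries in type 1 conventional dendritic-like cells (67.5% against 47.0% to 57.2%) and in T-lineage-like cells (54.4% against 41.7% to 50.2%), but not in neutrophil-like cells (43.3% against 25.5% to 45.7%). Ndufa4l2 was mainly a transcript of fibroblast-like or stellate-like cells, with 10.8, 9.77, 64.9 and 46.2 CPM there and 0.66, 0.138, 1.22 and 1.12 CPM in phagocytes. In the former cells both high-fat values lay above both low-fat values, a difference that was not tested.

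Phagocytes were divided into 12 sub-clusters, and the 8 with at least 50 cells in every library were compared, each with the mean of the other 7 (edgeR with the library as a block, 11690 genes, 81 members tested). These states were defined by other genes of the same cells, so the calls describe how members differ between groups of cells already unlike each other. Of the 8, 7 could be named from markers. The eighth was left unnamed, had a median depth of 1209 UMIs per cell and was low for the members (0 higher and 56 lower, against 4.52% and 9.8% of all genes). It enters each mean of the others, so counts of members without it are given too. The shares of all genes printed for each state belong to the fit that includes it. No such share is given for the counts without it, so those cannot be set against a background.

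Cells of the Arg1-hypoxic-like state, led by genes such as Mmp12, Gpnmb and Ndrg1, had lower levels of most members. Of 81, 51 were lower and 2 higher (median -0.24), against 8.66% lower, 12.2% higher and 20.8% in either direction over all genes (median 0.04). By complex, 25 of 36 were lower in complex I, 1 of 4 in complex II, 5 of 8 in complex III, 9 of 16 in complex IV and 11 of 17 in complex V. Without the unnamed sub-cluster 65 were lower and 2 higher. Without the high-fat WT or the high-fat shYap library 29 or 28 were called in either direction, in place of 53. These cells were 3.44%, 1.33%, 10.2% and 27.0% of the phagocytes, so most came from the high-fat libraries.

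Of the 3 members given here, Ndufa4 fell most in that state (-0.53 ± 0.09 against the other states, edgeR adjusted p = 0.00011). It was at 306, 230, 208 and 192 CPM there and at 477, 382, 370 and 355 CPM in the MHC class II high state, without overlap. Sdhb was at 101, 95.3, 99.0 and 92.8 CPM against 156, 152, 169 and 153 CPM in cycling cells (-0.40 ± 0.07, edgeR adjusted p = 0.00018). Atp5o, a stalk subunit of complex V, was at 189, 161, 173 and 134 CPM against 288, 244, 302 and 273 CPM in cycling cells (-0.43, edgeR adjusted p = 0.00011). All 3 genes were thus lower in every library than in the state printed beside them, which was chosen for each gene. Ndufa4 fell further in the peritoneal-like state, described below.

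The 2 members that rose in the Arg1-hypoxic-like state were Cox4i2 and Ndufa4l2, both known as hypoxia-induced alternatives to Cox4i1 and Ndufa4. Cox4i2 was at 7.55, 10.4, 13.6 and 9.27 CPM, from 18, 15, 143 and 157 UMIs, and at 3.48, 1.72, 4.65 and 2.01 CPM in the resident-like state, without overlap (0.997 ± 0.20 against the other states, edgeR adjusted p = 0.00057). Its call held under all alternatives run. Ndufa4l2 had 5, 0, 34 and 29 UMIs (1.67 ± 0.45, edgeR adjusted p = 0.008). It lost its call with DESeq2 (1.45) and without doublet removal (0.16), and fibroblast-like cells hold far more of it. Neither rise was particular to the state. Ndufa4l2 was also higher in the peritoneal-like (2.27 ± 0.54, edgeR adjusted p = 0.0011, from 6, 0, 21 and 3 UMIs) and the monocyte-like state (1.41 ± 0.48, edgeR adjusted p = 0.014, from 17, 3, 18 and 5 UMIs). These calls were lost without the high-fat WT library (1.93) and without the low-fat WT library (0.95), respectively. Cox4i2 was also higher in the monocyte-like state (0.54, edgeR adjusted p = 0.03). In the Arg1-hypoxic-like state 14 of 16 glycolysis genes were higher and none lower (median 0.58), and 4 of 13 mitochondrially encoded subunits were lower (median -0.20). Phosphoglycerate kinase Pgk1 was 1.02 ± 0.10 higher in the Arg1-hypoxic-like state (edgeR adjusted p = 1.3e-08). Glycolysis genes entered the clustering, so their counts between states are a description.

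**Figure D3:**
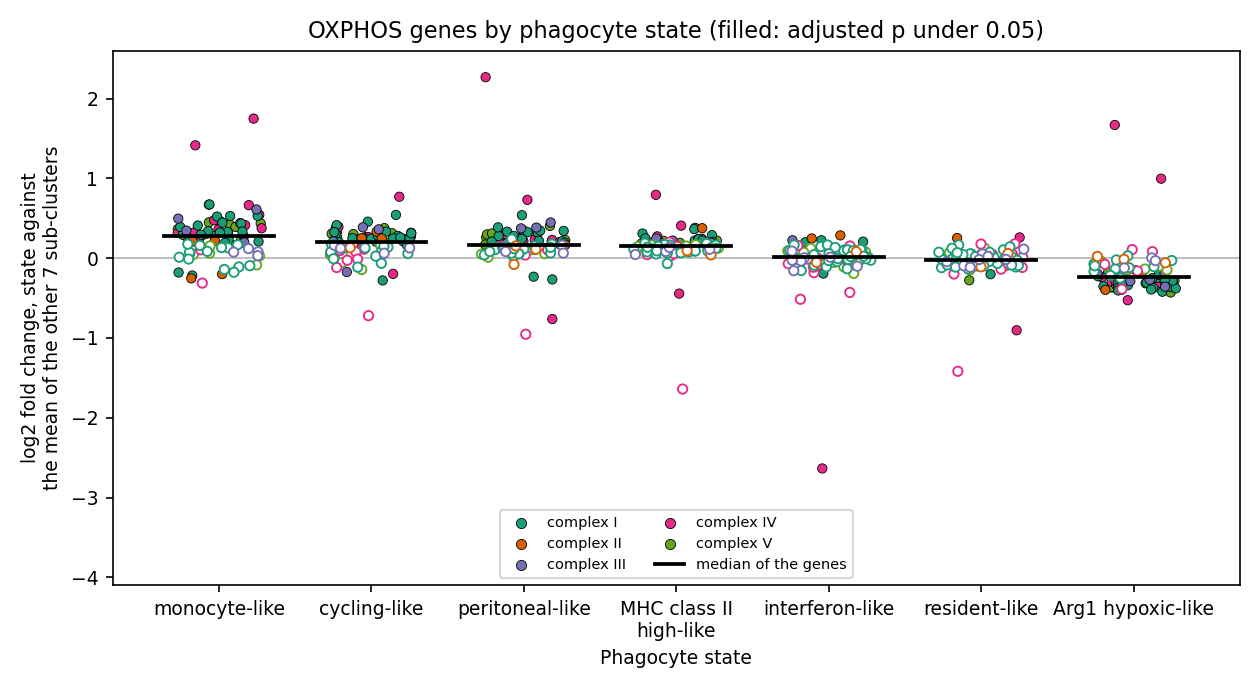
Log2 difference in edgeR (y axis) of each tested member in 7 named phagocyte states (x axis) against the mean of the other 7 sub-clusters. Each point is a gene, coloured by complex and filled where the adjusted p is under 0.05, and a black bar is the median. The medians run from 0.27 in the monocyte-like to -0.24 in the Arg1-hypoxic-like state, where 2 complex IV genes, Ndufa4l2 and Cox4i2, stand above 0.

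Monocyte-like phagocytes, marked by Ly6c2 and Chil3, had 52 members higher and 4 lower than the mean of the other states (median 0.27), against 27.9% and 25.3% of all genes (median -0.01). Without the unnamed sub-cluster the counts were 48 and 8. The name rests on 5 raised monocyte markers, but 7 interferon and 3 Arg1-hypoxic markers were raised too. The listed neutrophil markers S100a8, Mmp8 and Il1r2 were among the state's leading genes. As a share of all UMIs the 84 genes were at 2.36%, 2.33%, 2.27% and 2.02% in monocyte-like cells, below cycling cells in 3 of 4 libraries. In the high-fat shYap library only the Arg1-hypoxic-like cells were lower among the 7 named states compared. The Xist-led sub-cluster (1.97%) and a Kupffer-like one (1.76%), which were not compared, were also lower there. All but 2 of the 16 tested complex IV genes were higher. Ndufa6, a complex I accessory subunit, was at 234, 283, 267 and 264 CPM there and at 170, 175, 182 and 168 CPM in cycling cells, without overlap (0.67 ± 0.06 against the other states, edgeR adjusted p = 1.7e-11). Uqcrfs1, the Rieske iron-sulphur protein of complex III (0.61 ± 0.06, edgeR adjusted p = 2.3e-10), and Atp5md (0.67 ± 0.07, edgeR adjusted p = 3.6e-10) were higher too. Cox6b2, the testis-type form of a complex IV subunit, had the largest difference (1.75 ± 0.21, edgeR adjusted p = 1.4e-08) at a low level. Complex II divided again, with 2 genes higher and Sdha (-0.25 ± 0.06, edgeR adjusted p = 0.00077) and Sdhc (-0.20) lower.

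The nuclear and the mitochondrially encoded subunits did not move together in these cells: 11 of 13 of the latter were lower in monocyte-like cells and none higher (median -0.45), while 52 of 81 nuclear members were higher. Against the mean of the other sub-clusters, the 2 groups also moved apart in cycling cells (0 higher and 4 lower of 13) and in peritoneal-like cells (0 and 8). The unnamed low-depth sub-cluster is part of that mean in every state. No counts of mitochondrially encoded subunits without it are given, so its part cannot be told from these counts. They therefore do not show that cycling or peritoneal-like cells were low in these subunits among the named states. Glycolysis genes were higher for 14 of 16 in monocyte-like cells (median 0.76). Glycolysis and nuclear members were thus both higher in the monocyte-like state, while in the Arg1-hypoxic-like state glycolysis genes were higher and members lower.

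Cycling phagocytes had 45 members higher and 3 lower (median 0.20), against 23.4% and 17.2% of all genes, at a median depth of 16350 UMIs per cell. Without the unnamed sub-cluster the counts were 26 and 8. Ndufab1, the mitochondrial acyl carrier protein that is also part of complex I, was at 240, 171, 242 and 221 CPM (0.54 ± 0.07, edgeR adjusted p = 2e-07). Ndufv1, the NADH-binding core subunit, was 0.46 ± 0.07 higher (edgeR adjusted p = 1.9e-06), while Ndufa6 was lower (-0.28). Glycolysis genes went the other way, with 8 of 16 lower and none higher.

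In the MHC class II high state 31 members were higher and 1 lower (median 0.15), against 12.9% and 10.6% of all genes. Without the unnamed sub-cluster 15 were higher. Ndufa4 (0.41 ± 0.08, edgeR adjusted p = 0.00056), Ndufc2 (0.38 ± 0.06, edgeR adjusted p = 4.5e-05) and Sdhb (0.38 ± 0.07, edgeR adjusted p = 6.3e-05) led, and 15 of 16 glycolysis genes were lower. In place of 32 calls in either direction, 19 were made without the low-fat WT library, 11 without the high-fat WT library and 14 without the high-fat shYap library. The Xist-led sub-cluster had MHC class II high markers too and took the same name. It had too few cells outside the high-fat shYap library to be compared, so the values above leave it out. In that library the members' share was 1.97% in the Xist-led sub-cluster and 2.21% in the state compared here.

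The resident-like state, with Lyve1, had 2 members higher and 3 lower (median -0.02), against 11.9% and 11.4% of all genes (23.3% in either direction). Ndufa4 (0.26, edgeR adjusted p = 0.026) and Sdhc (0.25, edgeR adjusted p = 0.0018) were higher, and Cox4i2 (-0.90, edgeR adjusted p = 0.015), Atp5md (-0.28) and Ndufs6 (-0.20) lower. Without the unnamed sub-cluster 1 was higher and 18 were lower, so that state's count rests on which states it is set against. Without the low-fat WT or the high-fat WT library 3 or 2 were called. The interferon-like state had 6 higher and 2 lower (median 0.01), against 12.9% and 8.45%, with 2 and 14 without the unnamed sub-cluster. Sdhc (0.29) and Sdhb (0.25) were among those higher. Without the low-fat WT, high-fat WT or high-fat shYap library 3, 2 or 3 were called.

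Peritoneal-like phagocytes, led by Slpi, Prg4 and Saa3, had 40 members higher and 3 lower (median 0.17), against 19.8% and 15.8% of all genes, and 30 and 5 without the unnamed sub-cluster. Their name rests on 3 raised markers, Prg4, Saa3 and Marco, while the listed Gata6 and Alox15 were not raised. The same cells also had 4 Arg1-hypoxic and 3 Kupffer markers raised. Ndufv3, a complex I subunit of the NADH-binding arm, was at 267, 214, 287 and 273 CPM (0.54 ± 0.06, edgeR adjusted p = 3e-09). Cox7a1, the heart and muscle form of its subunit, was 0.73 ± 0.16 higher (edgeR adjusted p = 0.00058). Ndufa4 was the exception, at 260, 235, 151 and 130 CPM, below every other named state in each library, except that in the low-fat shYap library the Arg1-hypoxic-like value of 230 CPM was lower still (-0.76 ± 0.10, edgeR adjusted p = 1.1e-07).

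AA467197, the mouse gene for the Ndufa4-like protein NMES1, is not a member. It is known to take the place of Ndufa4 in complex IV in inflamed macrophages. In the peritoneal-like state it was at 521, 448, 1451 and 1101 CPM, and it is one of that state's leading genes, so its level there is a description. It supplied 66.6%, 65.6%, 90.1% and 89.4% of the UMIs of the set Ndufa4, Ndufa4l2 and AA467197 in that state, with exact 95% intervals of 64.6 to 68.5%, 63.7 to 67.4%, 89.1 to 91.0% and 88.5 to 90.3%. In the monocyte-like state it supplied 42.8%, 23.4%, 67.2% and 63.1%. In the MHC class II high state it was at 10.1, 19.9, 51.7 and 65.7 CPM, in the resident-like state at 23.4, 13, 59.1 and 46.9 CPM, and Ndufa4 exceeded it in every library of both. Among cell types, AA467197 supplied 51.9%, 54.1%, 63.0% and 76.6% of the set in neutrophil-like cells and 78.1%, 85.0%, 79.2% and 85.0% in type 2 conventional dendritic-like cells. In mature dendritic-like cells it supplied 74.6%, 63.3%, 75% and 83.0%.

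In each of the 7 named states both high-fat libraries had more AA467197 than both low-fat libraries. Ndufa4 was lower in both high-fat than in both low-fat libraries in the same states except the cycling and the interferon-like ones, where the values overlapped. Neither pattern was tested within states.

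**Figure D4:**
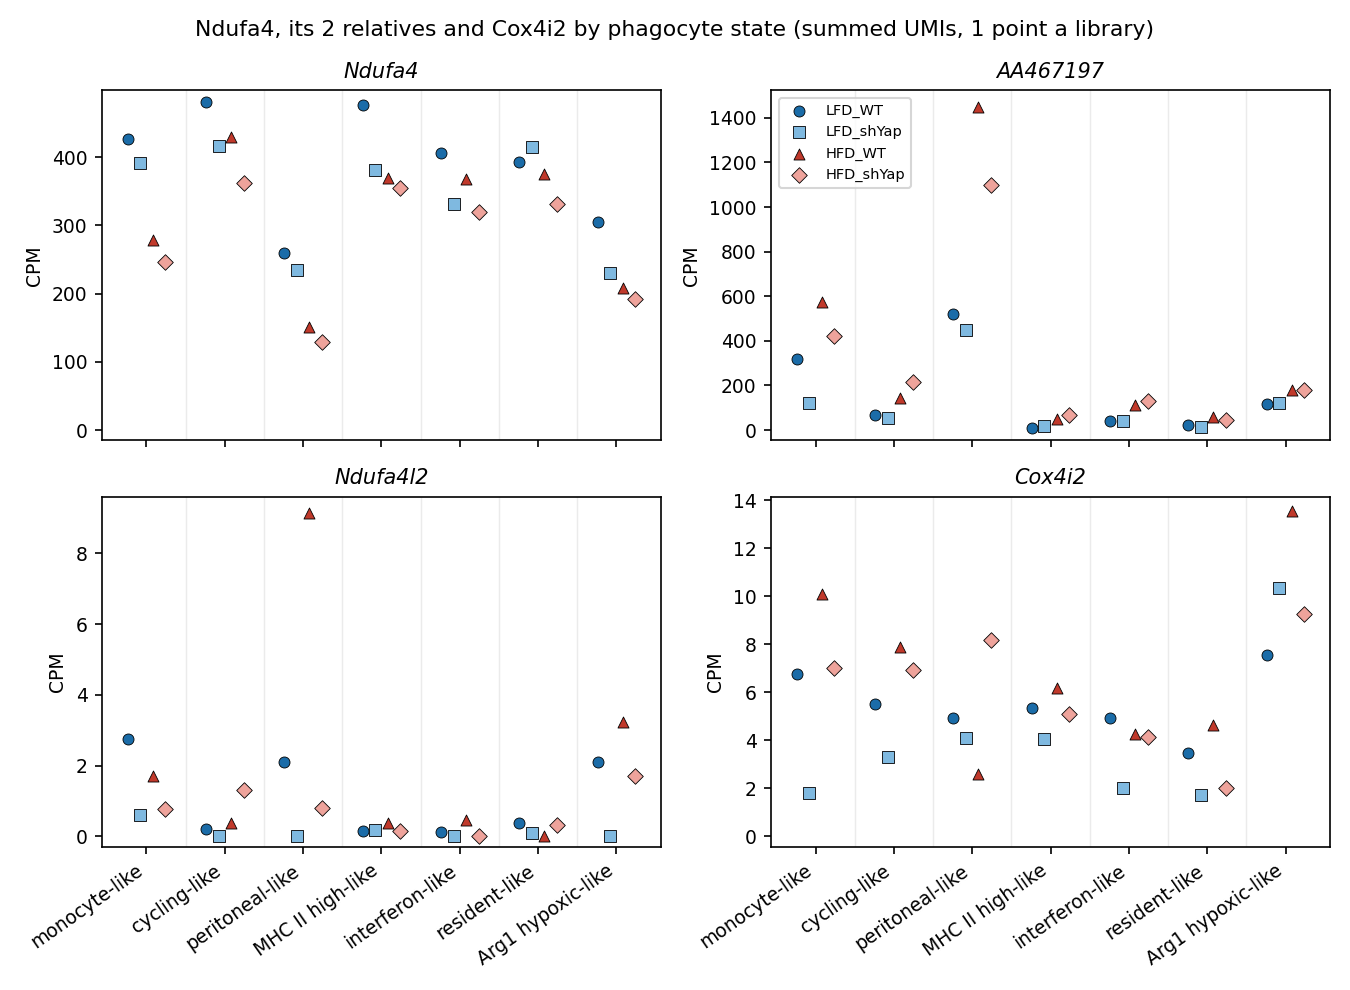
Levels (y axes, CPM of summed UMIs) of Ndufa4, AA467197, Ndufa4l2 and Cox4i2 in 7 named phagocyte states (x axis), with 1 point per library. LFD is the low-fat and HFD the high-fat diet. AA467197 exceeds Ndufa4 in all 4 libraries of the peritoneal-like state and lies below it in all 4 libraries of the MHC class II high and resident-like states. The y axes differ, and Ndufa4l2 stays under 10 CPM.

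For diet and tumour line, the design asks whether the tumour's immune cells differ with a high-fat diet and with Yap knock-down in the tumour cells. The 2 factors were fitted together on 4 libraries (1 residual degree of freedom). No member was called for diet or tumour line in phagocytes, T cells or neutrophils. Over all genes the called share for diet was 1.01%, 1.99% and 0.362% in the 3 types, and for tumour line 0.0494%, 0.503% and 0%. Members at an unadjusted p under 0.05 numbered 2, 2 and 16 for diet and 8, 4 and 5 for tumour line, and DESeq2 called 0. At that level 6.95%, 9.44% and 9.26% of all genes stood for diet and 7.10%, 6.29% and 6.04% for tumour line. Without the low-fat WT library, and with diet alone in the model, 2 members were called in phagocytes.

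The uncalled differences for tumour line had mostly one sign. In phagocytes 76 of 81 members were lower with shYap (median -0.22, all genes 0.00), in T cells 74 of 79 (-0.18, all genes 0.00) and in neutrophils 71 of 77 (-0.35, all genes 0.01). These are counts of signs, and the share of all genes below 0 in the same fits is not given. By calls, a different measure, 0.0423% of all genes were higher and 0.00705% lower in phagocytes. The called shares were 0.135% and 0.368% in T cells, and 0% in either direction in neutrophils. The mitochondrially encoded subunits had medians of 0.03, 0.04 and 0.02. Compared within a diet, the share of UMIs from the 84 genes was lower with shYap in 9 of 9 cell types under the low-fat diet and in 7 of 9 under the high-fat diet. Library against library on the CPM scale, shYap was lower than WT for 73 of 81 members in low-fat phagocytes (median -0.22, all genes -0.09) and 76 of 81 in high-fat phagocytes (-0.21, all genes 0.12). In T cells the low-fat pair differed less, with 56 of 79 lower (-0.06, all genes 0.02) against 72 of 80 in the high-fat pair (-0.20, all genes 0.08). There 47.3% and 42.0% of all genes were lower. In neutrophils 67 of 77 were lower in the low-fat pair (-0.35, where all genes were at -0.21) and 73 of 77 in the high-fat pair (-0.51, all genes 0.04). Of all genes in neutrophils, 65.1% and 47.4% were lower. Members are not replicates of a condition, so these counts carry no test.

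The difference was also seen within phagocyte states, where it was lower in 7 of 8 states under the low-fat diet and in 8 of 8 under the high-fat diet. The exception was the resident-like state, at 2.15% with WT and 2.18% with shYap. In cycling cells the share was 2.57%, 2.26%, 2.53% and 2.37%, and in Arg1-hypoxic-like cells 2.10%, 1.83%, 1.88% and 1.67%. The sub-cluster that came almost wholly from the low-fat shYap library had 1.72%. Within complexes, complex I was at 0.650%, 0.559%, 0.642% and 0.555% of phagocyte UMIs and complex V at 0.697%, 0.60%, 0.705% and 0.613%, with both shYap libraries below both WT libraries. Complex II, at 0.0394%, 0.0382%, 0.0417% and 0.0393%, had the same order with hardly any distance between the low-fat WT and the high-fat shYap value. The ribosomal protein share of phagocytes was 18.1%, 20.5%, 19.7% and 17.1%, which does not follow tumour line. Both shYap libraries also hold a sub-cluster of their own, Xist-led in the high-fat one. The tumour line cannot be told apart from other differences between single libraries.

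**Figure D5:**
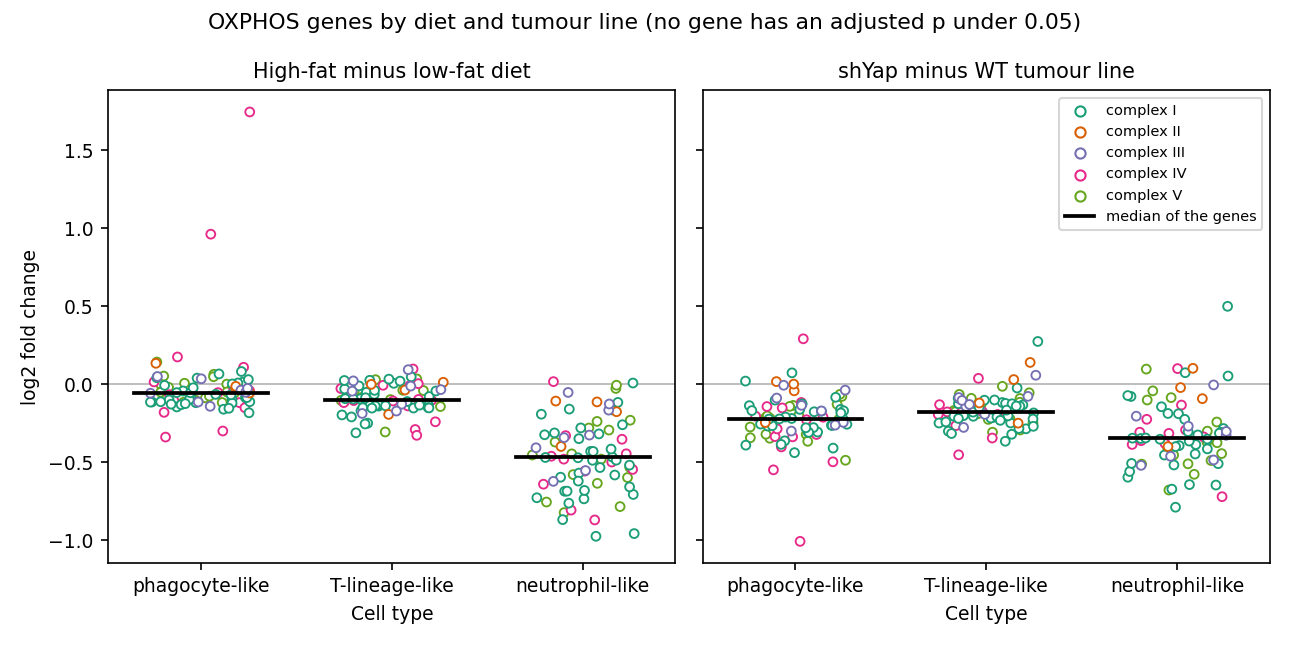
Log2 difference in edgeR (y axis) of each tested member for diet (left, high-fat minus low-fat) and tumour line (right, shYap minus WT) in 3 cell types (x axis). Each point is a gene, coloured by complex, and a black bar is the median. No gene shown has an adjusted p under 0.05, and the medians for tumour line lie at -0.22, -0.18 and -0.35.

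For diet the member medians were -0.05 in phagocytes, -0.10 in T cells and -0.47 in neutrophils (all genes -0.01, -0.01 and -0.02). By sign, 75 of 77 members were lower in neutrophils with the high-fat diet, without a call. The share of all genes below 0 in that fit is not given. By calls, a different measure, 0.029% of all genes were lower. Library against library, the T-cell members were at 0.01 between the WT libraries (35 of 79 lower) and at -0.13 between the shYap libraries (62 of 79 lower). Of all genes in T cells, 48.3% and 43.0% were lower. The phagocyte members were at -0.01 and 0.01 on that scale. The neutrophil members were at -0.41 and -0.47 (64 and 70 of 77 lower), where 55.1% and 38.1% of all genes were lower. Ndufb7 had a difference of -0.97 ± 0.28 in neutrophils (edgeR adjusted p = 0.26) and Ndufa4 one of -0.87. In neutrophils the mitochondrially encoded subunits had a median of 0.33, of opposite sign. In phagocytes Cox4i2 came nearest to the threshold, at 4.80 and 2.75 CPM with the low-fat and 7.82 and 6.96 CPM with the high-fat diet, without overlap (0.96 ± 0.22, edgeR adjusted p = 0.073). The Arg1-hypoxic-like cells, in which Cox4i2 is high, were also more numerous with the high-fat diet, and their part in that value was not tested. A fit with both factors crossed with cell type called 0 members for a diet or tumour line difference that differed between cell types.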

How the data were processed

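Per the labels' protocols, libraries were 3′ end libraries of the 10x Genomics droplet system (v3.1). The deposited files hold the authors' raw UMI counts per gene and cell barcode, not normalized. The file headers name Cell Ranger 6.0.0, whereas version 4.0.0, with STAR 2.5.1 and mm10, stands in the submitters' processing notes.

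A barcode was used if it had 200 or more detected genes and a mitochondrial UMI share below 15%. Doublets were removed by a score against simulated doublets, at 0.8% per 1000 barcodes. Of 50062 barcodes, 38882 stayed. They were clustered in scanpy 1.11.5 without the 84 genes (2000 variable genes, 30 components, 15 neighbours, Leiden resolution 1.0, phagocytes 0.5). Clusters were named from marker lists, with at least 3 markers raised.

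Counts were summed per library and cell type or state (T-lineage sums held 3817062 to 7574009 UMIs, phagocytes 62118649 to 76995215 and neutrophils 813486 to 2596305). Sums were fitted with edgeR 4.0.16 (R 4.3.3, quasi-likelihood, TMM, filterByExpr, Benjamini-Hochberg adjustment over all genes, threshold 0.05). SE is the log2 difference over the root of F and approximate. Levels are CPM of the sums. The fit was tested on simulated data. DESeq2 1.42.0, scaling, filter, clustering and left-out libraries were alternatives.

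Named genes were the paralogue sets, Sdha to Sdhd, each complex's most abundant, highest and lowest member per comparison, and AA467197, Cyc1, Cycs and Acod1. Members and lists were chosen with earlier results of these data known. Counting without a stated strand setting leaves overlapping genes and near-identical copies uncertain.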

Additional observations from a re-analysis of the deposited data

How the results depend on the processing

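Counts of members called kept within 1.5 times of the reported count in 141 of 161 recomputed comparisons with all libraries and moved further in 20. For T-lineage against phagocyte-like cells, in place of 17, 30 were called with median-ratio size factors, 34 with DESeq2 and 7 without the library as a replicate block. Without that block the counts were also 8 in the MHC class II high state, 1 in the resident-like, 25 in the cycling, 19 in the Arg1-hypoxic-like, 2 in the interferon-like and 24 in the peritoneal-like state. Median-ratio size factors gave 20 in the MHC class II high and 37 in the unnamed low-depth state, and DESeq2 gave 33 in the latter and 15 in the interferon-like state. With clusters made from all genes, members included, the MHC class II high state had 13. Without the unnamed sub-cluster it had 16, the resident-like state 19 and the interferon-like state 16. The interferon-like state had 16 with a mitochondrial limit of 25% and 19 without doublet removal. Diet in phagocytes had 2 with no filter on low counts.

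Leaving out each library in turn gave 0 to 2 for diet in phagocytes, 11 to 25 in the MHC class II high, 2 to 5 in the resident-like, 28 to 53 in the Arg1-hypoxic-like and 2 to 6 in the interferon-like state. Of the values of single named genes, 9419 were on the same side of the threshold, 502 lost their call, 199 gained one and 12 turned sign. In the MHC class II high state Acod1 turned to 0.0166 (limit of 25%), 0.26 (no doublet removal) and 0.0700 (clusters made with the members). In the monocyte-like state Ppargc1b ran from -1.24 to 0.40 over the left-out libraries, the latter without the high-fat WT library. Without doublet removal mt-Atp8 in the monocyte-like state was 0.21, Uqcrfs1 in the Arg1-hypoxic-like state -0.12, and in the peritoneal-like state Atp5g2 was -0.12 and mt-Nd1 0.15. Cox4i2 in the peritoneal-like state turned to -1.08 (limit of 25%), -1.50 (no doublet removal) and -1.55 (clusters made with the members), and mt-Nd1 in the unnamed state to -0.17 (limit of 10%). The cause was not tested in any of these. States were rebuilt under the changed filters, and with a limit of 25% or no doublet removal no cluster was named resident.

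With mitochondrially encoded and ribosomal protein genes left out of the denominator, the members' share was 2.66% in B-like, 3.58% in NK-like, 3.55% in T-lineage-like, 3.16% in type 1 and 2.93% in type 2 conventional dendritic-like, 3.71% in fibroblast-like or stellate-like, 2.78% in phagocyte-like, 3.89% in tumour-like and 1.61% in neutrophil-like cells, which stayed last. Depth limits the scarce members most: Ndufa4l2, Cox4i2, Cox6b2 and Cox7a1 rest on few UMIs per state and library. With 1 library per combination, no diet or tumour line value has a replicate of its own.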
